A study of Gallus gallus with 5 samples.

Results

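The invaginating otic placode of the chick embryo, dissected at 11-12 somites (ss), was compared with the whole embryo at 3ss, to find the transcripts that the placode holds at a higher or a lower level than the embryo at large. To be considered, a locus needed an RPKM (reads scaled to transcript length and library size) over 4 and a normalized count over 300 in whichever library was higher. It was called where the normalized counts differed by over 1.5-fold. Of 18365 loci with a count, 8984 passed these levels and 2469 were called. The placode was higher at 1320 of them, 14.7% of the loci that passed, and lower at 1149, or 12.8%. The other 6515 loci lay within 1.5-fold. A gene symbol stood on 1072 higher loci and 1003 lower ones.

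Polyadenylated RNA of Bovans Brown embryos was sequenced from 5 tissues, with 1 library for each. These were the posterior pre-placodal region (PPR) at stage HH6 and otic-epibranchial progenitors (OEPs) at 5-6ss. The others were the otic placode once it had thickened (8-9ss) and as it invaginated (11-12ss), and the 3ss whole embryo. No treatment or mutation is named in the labels of any of the 5 libraries. Placodes from many embryos were pooled for a library. Because the 2 libraries compared differ both in tissue and in stage, these cannot be told apart. With 1 library a side there is no replicate, so no p-value was computed and the 95% interval beside a fold change, the exact (Clopper-Pearson) binomial interval of the 2 counts, covers counting error only. Nor can fewer cells of a type be told from less RNA per cell in bulk tissue.

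The otic placode is a patch of thickened ectoderm beside the hindbrain. It folds inwards into the otic vesicle, and from it come the inner ear and its sensory neurons. It arises from progenitors shared with the epibranchial placodes, under FGF and WNT signals from the tissues around it. The 3ss embryo, by contrast, contains all germ layers, including the regressing primitive streak and node, the first somites, the heart fields, the neural plate and the endoderm.

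The otic placode library held 35985313 counts and the whole embryo library 46345428, within a range of 26858887 in OEPs to 136916870 in the PPR. Fold changes are ratios of counts divided by size factors of 0.866 and 1.15, and where 2 read counts are given, the placode comes first and the whole embryo second. The median log2 fold change over the loci that passed was -0.01 and its median size 0.33. Higher loci had a median fold change of 2, with 74 loci over 10-fold, and lower loci one of 1.96, with 119 over 10-fold. The most extreme differences lay among the lower loci, where 35 passed 100-fold as against 9 of the higher loci. A whole embryo count of 0 occurred at 0 of the higher loci, whereas the placode library had no read at 17 of the lower loci. The fold change of the locus just inside the threshold, NHLRC3, was 1.5014 and that of RPA1, just outside, 1.4998. Among lower loci these were ULK1 at 1.5005 and PIGQ at 1.4995. On the count level FICD lay inside at 300.28 and HINT2 outside at 299.59, and on the RPKM level PCSK2 lay inside at 4.00007 and SMOC2 outside at 3.997.

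**Figure D1:**
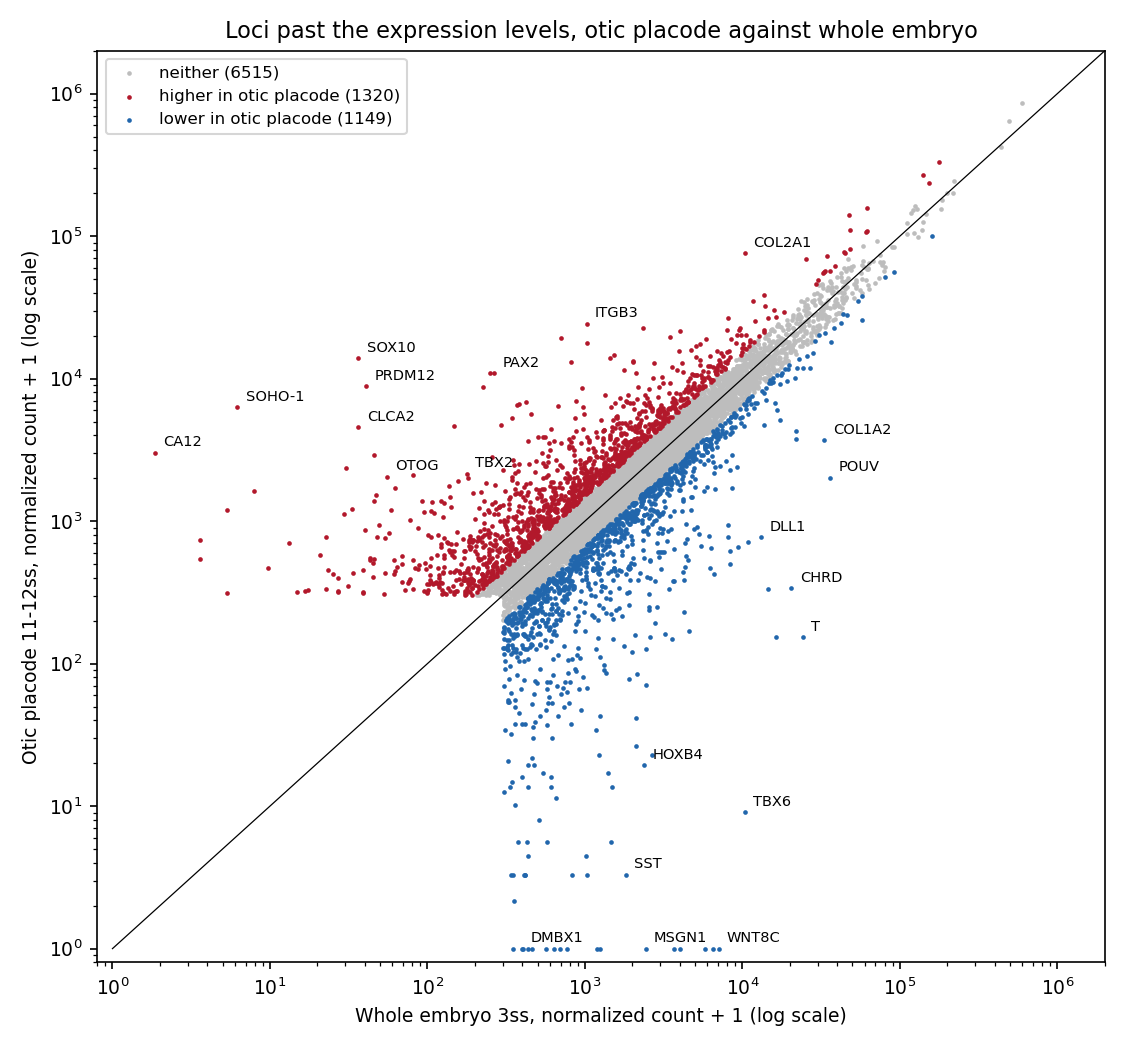
Normalized count of each locus that passed the expression levels in the whole embryo at 3ss (x axis) and the otic placode at 11-12ss (y axis), both plus 1 on log scales, with 1 library an axis. The 1320 higher loci (red) include SOHO-1, SOX10 and CA12 with few reads in the whole embryo, and the 1149 lower loci (blue) include a row along the bottom edge with no read in the placode.

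All 10 otic marker genes taken to check the label were higher in the placode, which uses the same values that chose the loci and is no independent support. Among them were *PAX2*, *GATA3*, *SOX10*, *SOX8*, *SOHO-1*, *EYA1*, *LMX1A*, *GBX2* and *DLX3*. Transcription factors of the otic and other placodes, the list to which they belong, were mostly enriched. Of 53 members that passed the levels, 43 were higher, 4 were lower and 6 were neither, with a median log2 fold change of 1.55 beside -0.01 over all loci. The higher share was 81.1% and the lower 7.55%, beside 14.7% and 12.8% of all loci. The homeobox gene *SOHO-1*, an HMX family factor of the otic placode and eye, had 5477 and 6 reads in the placode and whole embryo, respectively. *HMX1* lies next to it in the RefSeq gene order and had 637 and 3 reads, so that its 283-fold enrichment has an interval from 96.5 to 1377. Whether reads of one were counted for the other was not tested.

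The SOXE factors, which drive otic and neural crest development, followed the same direction. *SOX10* had 12025 and 41 reads, a 391-fold difference (95% interval 288 to 545), and *SOX8* had 7604 and 258, or 39.3-fold (34.7 to 44.7). *PRDM12*, a zinc finger protein best known from pain-sensing neurons, had 7704 and 46 reads and was 223-fold enriched (167 to 305). In the libraries that the comparison did not use, *SOX10* had a normalized count of 114 in the PPR, 706 in OEPs and 5157 in the 8-9ss placode, a higher level in each later library. *PRDM12* went from 41.8 in the PPR to 3865 in OEPs, and *SOX8* from 260.0 to 7407. As a ratio, the level of both thus changed most between these libraries, in progenitors that had not yet formed a placode. In counts *PRDM12* stood higher still later, at 7490 at 8-9ss and 10291 at 11-12ss.

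The EYA genes, co-activators that act with homeobox factors in sensory placodes, were enriched as well. *EYA4*, mutated in inherited deafness, led with 2054 and 34 reads and an 80.6-fold difference (57.5 to 117). *EYA1* had 2427 and 295 reads and *EYA2* 11603 and 2336, which gives 11.0-fold and 6.63-fold. *SIX2* had 441 and 51 reads (11.5-fold), while *SIX4* passed the threshold narrowly at 1.53-fold, a call lost under total count scaling. *SIX6*, otherwise a gene of the eye and pituitary, was 12.4-fold higher on 280 and 30 reads.

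The paired box gene *PAX2* and the distal-less homeobox genes named here showed a range of enrichment, whereas *PAX3* and *PAX-7* were lower, as given below. *PAX2*, which is needed for growth and patterning of the otic epithelium, had 9474 and 306 reads. Its normalized count was 30 in the PPR, 7119 in OEPs, 7510.2 at 8-9ss and 12655 at 11-12ss. *DLX3* had 5620 and 426 reads and was 17.6-fold higher (15.9 to 19.5), whereas *DLX5* and *DLX6* were 1.65-fold and 1.79-fold higher, and the call of *DLX5* was lost in RPKM. The LIM homeobox gene *LMX1A*, which acts in the otic epithelium and the roof plate, was 16.2-fold higher on 4072 and 336 reads, and its relative *LMX1B* 2.92-fold on 1328 and 607. Of the Iroquois genes, *IRX4* was 10.7-fold, *IRX1* 4.05-fold and *IRX2* 2.02-fold higher.

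The orphan receptor *NR2F1* had 1057 and 37 reads and was 38.1-fold higher (27.5 to 54.4), and *NR2F2* had 4571 and 396 and was 15.4-fold higher (13.9 to 17.1). By in situ hybridization at about this stage, the authors saw *NR2F2* in epibranchial cells but not in the otic placode. *TBX2* was 12.1-fold higher on 1866 and 205 reads and stood at a normalized count of 29.4 in the PPR, 52.6 in OEPs and 119 in the 8-9ss placode, against 2493 at 11-12ss. It was therefore low at each earlier otic stage. *TBX3* was 1.86-fold higher, whereas other T-box genes, of the mesoderm, were lower, as given below. *ZBTB16*, a repressor of the BTB family, had 11359 and 939 reads (16.1-fold), *ZNF385C* 5922 and 484 (16.3-fold) and *ZNF804A* 1468 and 71 (27.6-fold). The IKAROS family member *AIOLOS*, known from lymphocytes, had 497 and 23 reads and was 28.8-fold higher (19.0 to 45.9).

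The 4 members of the list that were lower were *GATA2* (646 and 5135 reads, 5.96-fold lower), *SALL3* (2.85-fold lower), *SALL1* (2.39-fold lower) and *MEIS1* (1.82-fold lower). *GATA2* is also a gene of blood progenitors and the non-neural ectoderm. *GATA3*, its paralogue in the placode, had 7405 and 1099 reads and was 8.99-fold higher (8.43 to 9.58), so the 2 GATA factors differed in opposite directions.

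Genes outside the transcription factors were also among the most enriched loci. The membrane-bound carbonic anhydrase *CA12*, which converts carbon dioxide to bicarbonate outside the cell, had 2618 reads in the placode and 1 in the whole embryo. On a single read the ratio of 3492 has an interval from 626 to 137976, so its size is not known. The calcium-activated chloride channel regulator *CLCA2* had 3955 and 41 reads and was 129-fold higher (94.7 to 179.6). *CA12* had a normalized count of 0.350 in the PPR, 199.5 in OEPs and 2337 at 8-9ss, and *CLCA2* of 11.1, 258 and 3327. Both thus stood highest once the placode had formed. The transmembrane mucin *MUC13* had 1036 and 5 reads (276-fold, 118 to 853), *ODF2L*, related to a centrosome and sperm tail protein, 1397 and 8 (233-fold, 118 to 541), and *PLEKHS1*, a protein with a pleckstrin homology domain, 466 and 3 (207-fold, 70.5 to 1008). These 3 had few reads in the whole embryo, and their intervals are wide. *ODF2L* lies next to *CLCA2* in the RefSeq gene order, and how reads were divided between them was not tested.

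*FA2H*, which hydroxylates fatty acids of sphingolipids, was one of the strongly enriched loci with a large count. It had 16685 and 813 reads, a 27.4-fold difference (25.5 to 29.4). *ASS1*, an enzyme of arginine synthesis, was 17.0-fold higher on 15311 and 1198 reads and the O-glycosylating enzyme *GALNT6* 9.69-fold on 19638 and 2704. Of secreted factors, *FIGF* (VEGF-D, a growth factor of lymphatic vessels) had 269 and 5 reads (71.8-fold, 30.4 to 223) and *PNOC*, the precursor of the opioid-like peptide nociceptin, 973 and 33 (39.3-fold, 27.8 to 57.5). *EMP1*, a tetraspan membrane protein of epithelia, was 35.9-fold higher on 673 and 25 reads. The receptor phosphatase *PTPRZ1* was 20.7-fold higher on 1038 and 67. Its normalized count was 117 in the PPR, 19.9 in OEPs, 167 at 8-9ss and 1387 at 11-12ss, with the highest value at the last stage.

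Ion and bicarbonate transport genes, taken as a whole list, were less one-sided than *CA12* and *CLCA2*. Of 22 that passed, 7 were higher (31.8%) and 5 lower (22.7%), beside 14.7% and 12.8% of all loci. The sodium bicarbonate cotransporter *SLC4A4* was 3.33-fold higher and the anion exchanger *SLC4A2* 1.85-fold. The cytosolic carbonic anhydrase *CA2*, which is abundant in red blood cells, was 4.12-fold lower on 406 and 2232 reads, so that 2 carbonic anhydrases differed in opposite directions.

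Some genes of hair cells and hearing loss were enriched, although no hair cell has formed at this stage. Of 25 that passed, 12 were higher and 3 lower, a median log2 fold change of 0.50. The higher share was 48%, beside 14.7% of all loci, and the lower share of 12% was near the 12.8% of all. Of the 12, *EYA4*, *EYA1* and *GATA3* are also otic transcription factors. *OTOG*, which encodes otogelin of the tectorial and otolithic membranes and stands on the matrix list, had 1776 and 63 reads and was 37.6-fold higher (29.2 to 49.1). *USH1C*, the scaffold harmonin of the hair bundle, had 1192 and 52 reads (30.6-fold, 23.2 to 41.2). *USH1C* and *OTOG* are neighbours in the RefSeq gene order, and how reads were divided between them was not tested. Of other hair bundle proteins, whirlin (*DFNB31*) was 5.45-fold, clarin (*CLRN1*) 3.57-fold, espin (*ESPN*) 3.14-fold and protocadherin *PCDH15*, a component of the tip link, 2.51-fold higher, on 723, 324, 866 and 463 placode reads. The lower members were *SNAI2*, *EDNRB* and *SLC26A5*, of which *SNAI2* and *EDNRB* are neural crest genes linked to deafness through pigment cells.

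**Figure D2:**
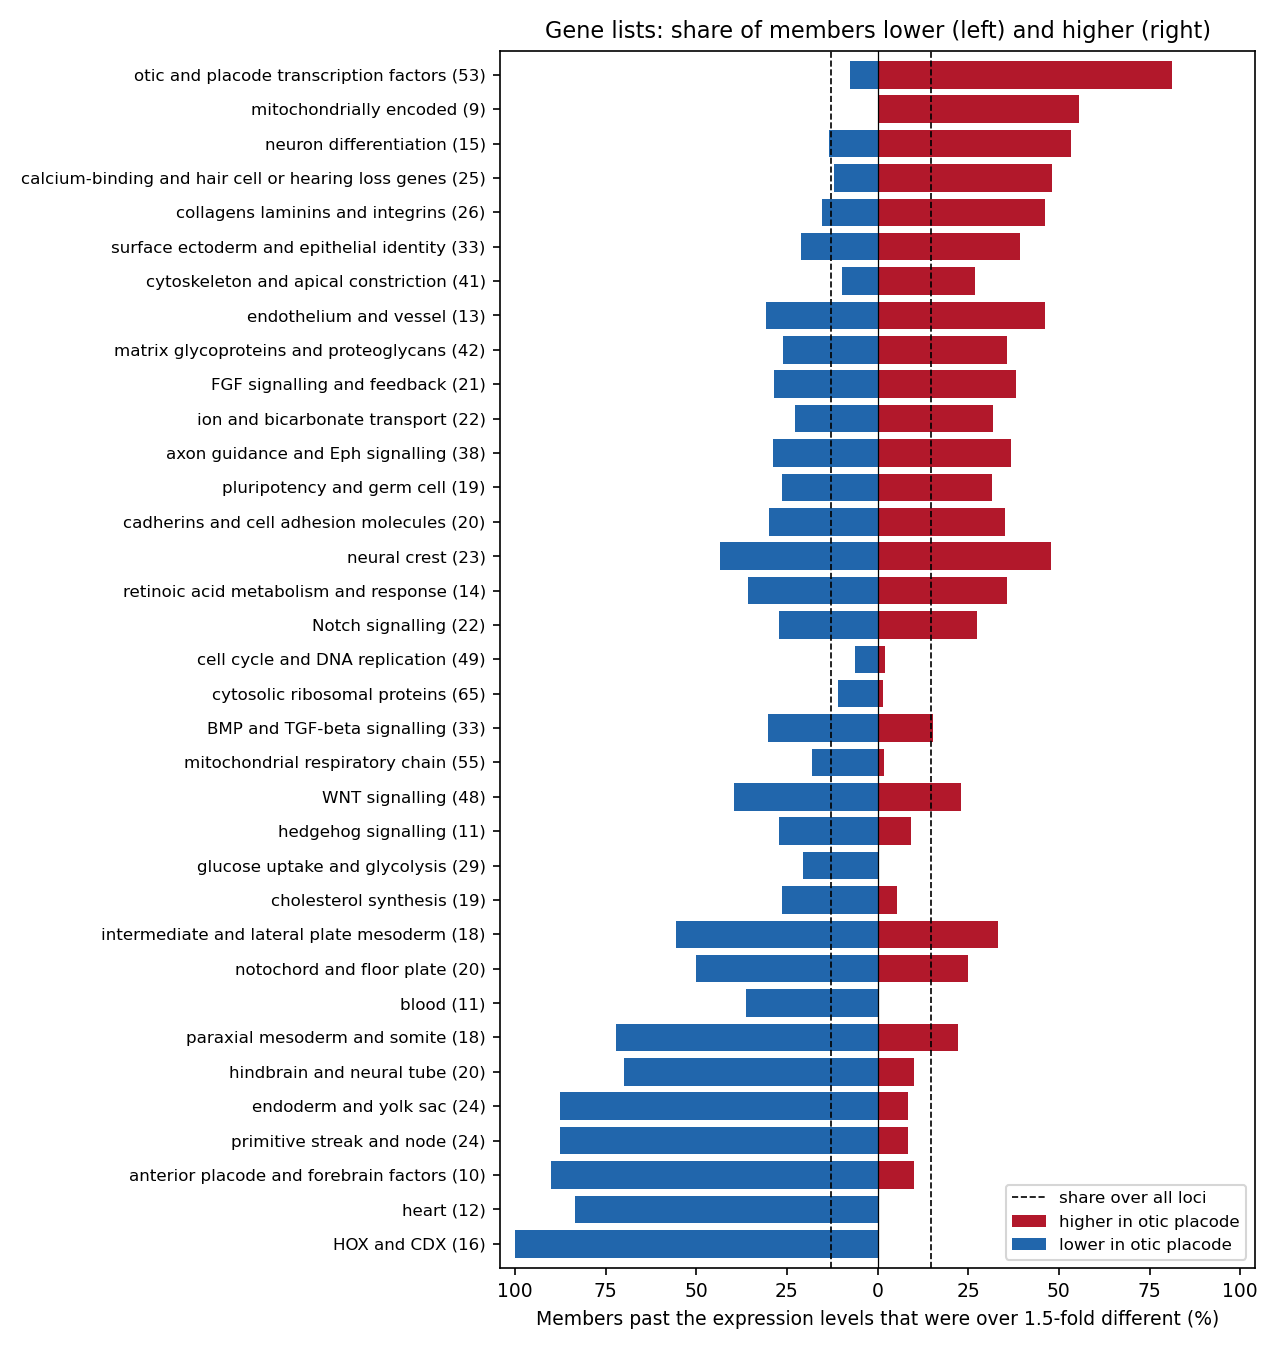
Share of the members of each gene list (y axis, number that passed the expression levels in brackets) that were over 1.5-fold higher (red, right) or lower (blue, left) in the otic placode, in percent, with dashed lines at 14.7% and 12.8%, the shares over all loci. Otic transcription factors reached 81.1% higher, and HOX and CDX genes 100% lower.

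The extracellular matrix differed by component. Collagens, laminins and integrins included 12 higher and 4 lower loci of 26, with a median log2 fold change of 0.43. These shares were 46.2% and 15.4%, beside 14.7% and 12.8% of all loci. The integrin subunit *ITGB3*, a receptor for fibronectin and vitronectin, had 21061 and 1184 reads and was 23.7-fold higher (22.4 to 25.2). Fibrillar collagen *COL2A1*, the main collagen of cartilage, also made by early embryonic epithelia, had 65492 and 12022 reads (7.27-fold, 7.13 to 7.41), and collagen IX, which decorates type II fibrils, followed with *COL9A1* 7.75-fold and *COL9A2* 2.28-fold higher. *COL5A1*, *COL5A2* and *COL11A1*, which co-assemble with the major fibrillar collagens, were 4.33-fold, 3.68-fold and 2.59-fold higher.

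Other collagens went the other way. The type I chain *COL1A2* had 3211 and 38289 reads and was 8.94-fold lower (8.62 to 9.27), and *COL13A1* was 13.3-fold lower on 115 and 2035 reads. Of the basement membrane collagens, *COL4A1* and *COL4A2*, which lie side by side and share a promoter in vertebrates, were 2.34-fold and 2.0-fold lower, whereas *COL4A6* was 1.92-fold higher. The laminin chains *LAMA1* and *LAMB1* were 1.60-fold and 1.59-fold higher. Fibronectin, *FN1*, one of the loci with the most reads among those that were lower, had 44832 and 93246 reads and was 1.56-fold lower.

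Of matrix glycoproteins and proteoglycans, 15 of 42 were higher (35.7%) and 11 lower (26.2%), beside 14.7% and 12.8% of all loci. Matrilin *MATN4* was 12.9-fold, the elastic fibre genes *EFEMP1* and *ELN* 7.31-fold and 5.66-fold, and *FREM2*, of the Fraser complex that anchors epithelia, 3.69-fold higher. *EFEMP1* had a normalized count of 9.32 in the PPR, 14.5 in OEPs, 22.4 at 8-9ss and 519.6 at 11-12ss. Like *TBX2*, it was low at each earlier otic stage. The heparan sulphate proteoglycan *GPC3*, a glypican that restrains growth, had 11 and 1718 reads and was 117-fold lower (65.3 to 235), whereas *GPC1* was 1.68-fold higher.

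Cell adhesion genes were split, with 7 higher and 6 lower of 20 (35% and 30%, beside 14.7% and 12.8% of all loci). N-cadherin *CDH2*, of the neural plate and mesoderm, was 3.36-fold lower on 4462 and 19971 reads, and *CDH11* of mesenchyme 2.97-fold lower. The axonal glycoprotein *CNTN2* was 108-fold lower on 132 and 19015 reads, and paraxial protocadherin *PCDH8* 18.5-fold lower on 198 and 4895. The classical cadherin *CDH3*, counted with the epithelial genes below, had 70062 and 55666 reads and was 1.68-fold higher (not called in RPKM), *CADM3* 4.06-fold and *PCDH19* 2.95-fold.

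Genes of epithelial identity were more often higher (13 of 33, 39.4%) than lower (7, 21.2%), beside 14.7% and 12.8% of all loci. The ectodermal AP-2 factor *TFAP2E* had 4035 and 168 reads and was 32.0-fold higher (27.4 to 37.6), *TFAP2A* 5.22-fold on 9486 and 2426 reads and *TFAP2B* 3.23-fold on 274 and 113. The authors' in situ hybridization placed later *TFAP2E* transcripts in the epibranchial territory and neural crest cells. The tight junction gene *CLDN3* was 6.47-fold higher and *OCLN* 2.15-fold, and *TACSTD1* (EPCAM) was 1.89-fold higher on 26141 and 18426 reads. The splicing regulators *ESRP2* and *ESRP1*, which set the epithelial forms of many transcripts, were 3.35-fold and 1.75-fold higher. Of the Grainyhead factors *GRHL2* was 2.60-fold higher and *GRHL3*, a gene of the surface ectoderm and neural folds, 16.2-fold lower on 36 and 777 reads. The lower members also included *KRT18* and *KRT19*, 1.60-fold and 1.66-fold, of which *KRT19* was not called in RPKM.

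At this stage the placode bends inwards, for which epithelial cells narrow at one end. Of the cytoskeletal and apical constriction genes that passed, 11 of 41 were higher, 4 lower and 26 neither. The higher share was 26.8% and the lower 9.76%, beside 14.7% and 12.8% of all loci. Myosin light chain kinase, *MYLK*, which activates contraction, had 9938 and 2035 reads and was 6.51-fold higher (6.21 to 6.84). *SHROOM4* was 3.58-fold higher and *SHROOM3*, known for apical constriction of the neural plate, 2.37-fold lower on 437 and 1379 reads. The actin bundling gene *FSCN1* was 2.32-fold and ezrin, *EZR*, 2.14-fold higher.

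Signalling genes were divided between both directions within each pathway. Of FGF genes, 8 were higher and 6 lower of 21 (38.1% and 28.6%), beside 14.7% and 12.8% of all loci. Among ligands, *FGF10* had 808 and 56 reads (19.2-fold higher, 14.7 to 25.7), *FGF18* 1373 and 224 (8.18-fold higher) and *FGF8* 1512 and 942 (2.14-fold higher). *FGF19* and *FGF3*, which come from mesoderm and hindbrain during otic induction, were 7.39-fold and 3.64-fold lower. The receptors *FGFR2* and *FGFR3* were lower, *FGFR2* 5.73-fold on 783 and 5986 reads and *FGFR3* 4.01-fold on 1456 and 7793. Targets and feedback genes included *ETV4* and *ETV5*, 2.28-fold and 1.81-fold higher, the inhibitor *SPRED1*, 2.16-fold higher, and *DUSP5*, 6.03-fold lower. *MKP3* (DUSP6), a feedback phosphatase of the pathway that the list did not hold, was 2.85-fold higher on 5867 and 2741 reads.

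WNT genes were more often lower, 19 of 48 (39.6%), than higher, 11 (22.9%), with a median log2 fold change of -0.30. Over all loci the lower share was 12.8% and the higher 14.7%. All called WNT ligands of the list were lower. *WNT8C*, of the streak and hindbrain, had 8150 reads in the whole embryo and 0 in the placode, at least 2037-fold lower when the placode is set at the floor of 3 counts. *WNT3A*, of the tail bud and roof plate, had 0 and 504 reads, 126-fold lower at this floor (lower limit 102). *WNT11* and *WNT5B*, of the streak and mesoderm, were 13.4-fold and 5.30-fold lower. Targets and antagonists of the pathway were lower too: *SP5* by 10.3-fold, *AXIN2* 2.32-fold and *APCDD1* 5.05-fold. The secreted antagonist *DKK-1* had 1384 reads in the whole embryo and 0 in the placode. It was 346-fold lower at the floor of 3 counts (lower limit 281). The receptor *FZD10* was 24.1-fold lower on 129 and 4140 reads.

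Among WNT genes, the higher set included receptors and their regulators. *KREMEN1*, a receptor of DKK proteins, had 1810 and 92 reads and was 26.2-fold higher (21.3 to 32.7). *FZD1*, *FZD4* and *FZD3* were 4.36-fold, 4.34-fold and 2.13-fold higher. *LGR5*, a receptor of R-spondins, was 4.22-fold higher on 968 and 306 reads, whereas the ligand *RSPO3* was 4.56-fold lower. The nuclear effectors *TCF7L1* and *TCF7L2* were 2.19-fold and 2.41-fold higher.

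Of BMP and TGF-beta genes, 10 of 33 were lower (30.3%) and 5 higher (15.2%), beside 12.8% and 14.7% of all loci. The higher share was thus near that of all loci. Secreted antagonists and targets of the pathway were among the lower members. Chordin, *CHRD*, from the node and notochord, had 293 and 23668 reads and was 60.6-fold lower (54.0 to 68.2), and follistatin, *FST*, was 9.72-fold lower on 560 and 7259. The target genes *GHOX-7* (MSX1) and *MSX2* were 13.6-fold and 10.2-fold lower and the pseudoreceptor *BAMBI* 10.7-fold. *BMP7* was 2.16-fold and the target *ID3* 2.34-fold higher.

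Notch genes were evenly split, 6 higher and 6 lower of 22, or 27.3% each, beside 14.7% and 12.8% of all loci. The ligand *JAG1*, which marks the later prosensory otic epithelium, was 3.56-fold higher on 3643 and 1363 reads and the target *HEY1* 4.13-fold on 6689 and 2159. The ligand *DLL1*, of presomitic mesoderm and neural progenitors, was 17.1-fold lower on 670 and 15238 reads and the target *HES5* 7.69-fold lower. Of hedgehog genes, 3 of 11 were lower (27.3%) and 1 higher (9.09%). The ligand *SHH*, of notochord, floor plate and gut, had 16 and 503 reads (23.6-fold lower, 14.4 to 41.6).

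Of retinoic acid genes, 5 were higher and 5 lower of 14, or 35.7% each, beside 14.7% and 12.8% of all loci. The synthesizing enzymes *ALDH1A2* and *RDH10*, found in somites and lateral mesoderm, were both lower. *ALDH1A2* had 290 and 16872 reads (43.6-fold lower, 38.8 to 49.2) and *RDH10* 332 and 4945 (11.2-fold lower, 9.99 to 12.5). The degrading enzyme *CYP26A1* was 6.19-fold lower. The cellular binding proteins *CRABP-I* and *CRABP2* were 7.19-fold and 1.85-fold higher, as were the receptors *RXRG* (3.21-fold), *RARB* (1.86-fold) and *RXRA* (1.53-fold). The call of *RXRA* was lost under total count scaling. The other lower members were *RBP4*, a retinol carrier (16.6-fold), and the oxidizing enzyme *CYP1B1* (7.77-fold).

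Genes of neurons and axon guidance included more higher than lower members. The higher and lower shares were 53.3% and 13.3% for neuronal genes and 36.8% and 28.9% for guidance genes. Those of all loci were 14.7% and 12.8%. Of neuronal genes, 8 of 15 were higher and 2 lower, with *RET*, a receptor of GDNF family ligands, 5.69-fold, the growth cone protein *GAP43* 5.25-fold and the tubulin *TUBB3* 2.36-fold higher, the latter on 19578 and 11072 reads. The neurogenic factor *NEUROD1* had 5 and 3 reads and did not pass the levels. Among guidance genes 14 of 38 were higher and 11 lower. The secreted semaphorin *SEMA3D* was 8.00-fold higher on 6073 and 1012 reads, *SEMA3F* 3.25-fold on 22929 and 9401 and the receptor *EPHA4* 3.36-fold, whereas *SEMA3A* was 3.77-fold, the ligand *EFNB2* 2.95-fold and netrin, *NTN1*, 13.6-fold lower. *NGFR*, a neurotrophin receptor of neural crest and placodes, was 9.58-fold higher on 5558 and 774 reads.

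The depleted loci were led by genes of the posterior axis and the mesoderm. All 16 HOX and CDX loci that passed the levels were lower, with a median log2 fold change of -5.82. The lower share over all loci was 12.8%. The caudal genes, which specify the trunk and tail, were low or at 0 in the placode library. *CDX4* had 0 reads in the placode and 6653 in the whole embryo, *CDXB* 0 and 4615, and *CDX-A* (CDX1) 0 and 4278. These are differences of at least 1663-fold, 1153-fold and 1069-fold. *CDX2* had 19 and 3064 reads (121-fold lower, 77.3 to 201). *CDX4* and *CDXB* are neighbouring loci, and how reads were divided between them was not tested.

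The size of the difference varied among HOX genes. *HOXB-7* and *HOXA7* had 1429 and 739 reads in the whole embryo and 0 in the placode, at least 357-fold and 185-fold lower. *HOXB4* had 16 and 2735 reads and was 128-fold lower (78.8 to 225), and *HOXA4*, on 3 placode reads, 291-fold (99.4 to 1414). The anterior genes, expressed in the hindbrain beside the ear, differed less. *HOXB3* was 14.5-fold, *HOXA3* 2.41-fold and *HOXA2* 2.17-fold lower, the last on 952 and 2758 reads. Several HOXA symbols stood on more than 1 locus, and the 3 loci named *HOXA13* held identical counts, so the counts of this cluster are uncertain. Summed over the 46 HOX and CDX loci, the normalized count was 3238 in the placode and 40135 in the whole embryo, with 29 of the loci at 0 in the placode.

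Genes of the primitive streak and node were lower at 21 of 24 loci and higher at 2, a median log2 fold change of -3.56. The lower share was 87.5% and the higher 8.33%, beside 12.8% and 14.7% of all loci. *EVX1*, of the posterior streak, had 7476 reads in the whole embryo and 0 in the placode, at least 1868-fold lower. *T* (brachyury), the gene of nascent mesoderm and notochord, had 132 and 27924 reads, 159-fold lower (134 to 189.6). Its normalized count was 226 in the PPR, 230.3 in OEPs and 229 in the 8-9ss placode. The low level of *T* thus held in each dissected ectoderm. *NKX1-2* was 92.2-fold and *EOMES* 9.75-fold lower.

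Paraxial mesoderm and somite genes were lower at 13 of 18 loci and higher at 4 (*EPHA4*, *FGF8*, *LFNG* and *PRRX1*, none of them confined to mesoderm and the last not called in RPKM). These shares were 72.2% and 22.2%, beside 12.8% and 14.7% of all loci. *TBX6*, which commits cells to paraxial mesoderm, had 7 and 12018 reads, a 1287-fold difference (625 to 3202). *MSGN1* had 0 reads in the placode and 2805 in the whole embryo, and *MESP2*, of the forming somite border, 0 and 807. They were at least 701-fold and 202-fold lower. The somite genes *GGMOXR1* (MEOX1) and *TCF15* were lower by less, *GGMOXR1* 8.15-fold on 582 and 6326 reads and *TCF15* 8.05-fold on 130 and 1395. Summed over 34 loci the list held 34306 normalized counts in the placode and 81819 in the whole embryo, with 6 loci at 0 in the placode. The skeletal muscle factor *MYOD1* had 0 and 7 reads and was too low to compare. Of intermediate and lateral plate mesoderm genes 10 of 18 were lower (55.6%) and 6 higher (33.3%), beside 12.8% and 14.7% of all loci. The higher ones included the otic genes *EYA1*, *TBX2* and *TBX3*. The lower ones included *PDGFRA* and *PDGFRB*, receptors of mesenchyme, at 5.85-fold and 4.69-fold.

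Heart genes were lower at 10 of 12 loci (83.3%) and higher at 0, beside 12.8% and 14.7% of all loci. The GATA factors of heart and endoderm were all lower. *GATA4* had 2 and 393 reads, a ratio of 147 with an interval from 40.5 to 1221, *GATA5* had 139 and 3698 (19.9-fold lower) and *GATA6* 50 and 683 (10.2-fold lower). *HAND1* was 56.3-fold lower on 19 and 1426 reads and the contractile gene *TNNT2* 6.68-fold on 212 and 1889. *NKX2-5*, the classical cardiac homeobox gene, had 496 and 536 reads and was within 1.5-fold. The natriuretic peptide gene *NPPA*, of atrial muscle, had 0 and 21 reads and did not pass the levels. Summed over 43 loci the heart list held 9982 normalized counts in the placode and 25110 in the whole embryo.

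Endoderm and yolk sac genes were lower at 21 of 24 loci (87.5%) and higher at 2 (8.33%), beside 12.8% and 14.7% of all loci. The apolipoprotein gene *APOA1* had 432 and 9586 reads (16.6-fold lower, 15.1 to 18.4) and transthyretin, *TTR*, 8 and 415 (38.9-fold lower). The 2 higher members were the epithelial genes *CLDN3* and *TACSTD1*. Of notochord and floor plate genes 10 of 20 were lower (50%) and 5 higher (25%), beside 12.8% and 14.7% of all loci. Among the higher ones are *LMX1A* and the collagens II and IX described above. Blood genes that passed were lower at 4 of 11 loci (36.4%, beside 12.8% of all loci) and higher at 0. Summed over 32 loci the blood list held 25406 and 33756 normalized counts. Of these loci 8 had no read in the placode, among them the erythroid anion exchanger *SLC4A1* (0 and 6 reads) and the myeloid receptor *CSF1R* (0 and 2).

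Several precursors of secreted peptides were among the most depleted loci. Somatostatin, *SST*, had 2 and 2098 reads, a ratio of 786 with an interval from 217 to 6498. *POMC*, the precursor of ACTH and melanocortins, had 650 reads in the whole embryo and 0 in the placode, at least 162-fold lower. Its antagonist at melanocortin receptors, *AGRP*, had 2 and 960 reads (ratio 359.9, 99.4 to 2976). The hyaluronidase *SPAM1*, best known from sperm, had 2 and 1191 reads (ratio 446, 123 to 3691), yet its normalized count was 2991 in the PPR against 52.6 in OEPs. *VENTX* and *NKX2-8*, homeobox genes of which the latter marks foregut endoderm, had 530 and 460 reads in the whole embryo and 0 in the placode, at least 132-fold and 115-fold lower.

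Factors of the forebrain and anterior placodes were lower at 9 of 10 loci, with *SIX6* the only one higher. The lower share was 90% and the higher 10%, beside 12.8% and 14.7% of all loci. *FEZF2* and *DMBX1* had 890 and 463 reads in the whole embryo and 0 in the placode. At the floor of 3 counts they were 222-fold and 116-fold lower (lower 95% limits 180.5 and 93.7). *LHX5* was 83.2-fold lower on 22 and 2440 reads, *HESX1* 14.9-fold and *OTX2*, the head organizer and forebrain gene, 9.54-fold. The normalized count of *LHX5* was 7686 in the PPR, 395 in OEPs and 95.3 at 8-9ss, and that of *OTX2* 10617, 2109 and 344. *DMBX1* stood at 2221 in the PPR and 0 in OEPs. For *LHX5*, *OTX2* and *DMBX1* the level in the PPR was thus above that in the whole embryo (2407, 4746 and 457), unlike that of *TBX6* (16.2 in the PPR and 11856 in the whole embryo). This did not hold for all genes of the list. *FEZF2* stood at 98.05 in the PPR and 878 in the whole embryo.

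Neural tube genes were lower at 14 of 20 loci (70%) and higher at 2 (10%), beside 12.8% and 14.7% of all loci. Of neural plate transcription factors, *ZIC2* had 215 and 3320 reads (11.6-fold lower) and *ZIC1* 3 and 505 (126-fold lower, 42.9 to 614). The higher members were *NES*, an intermediate filament of neural and other progenitors, at 2.82-fold on 33355 and 15767 reads, and *CRABP-I*. *SOX2*, shared by neural plate and placodes, had 1191 and 1628 reads and was not called.

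Neural crest markers were divided, 11 higher and 10 lower of 23 (47.8% and 43.5%, beside 14.7% and 12.8% of all loci). *SOX10*, *TFAP2A* and *TFAP2B*, which are otic or ectodermal genes as well, were among the higher members. So were *NGFR*, *ID3* and *PRRX1*, given above with other lists, the last not called in RPKM. The crest specifiers *SNAI2*, *PAX3* and *PAX-7* were 3.97-fold, 4.11-fold and 2.1-fold lower. *ZEB2*, which acts in crest cells as they leave the neural tube, had 109 and 2830 reads and was 19.5-fold lower. Summed over 26 loci, the crest list held 70810 normalized counts in the placode and 51479 in the whole embryo, and no member was at 0 in the placode. *SOX10* alone held 16063 of the placode counts and 40.45 of the whole embryo counts. *SOX10* thus makes up a large part of the difference between the sums. Whether its reads came from otic or crest cells was not tested. The endothelial list had 6 higher and 4 lower members of 13 (46.2% and 30.8%). *CLDN5*, *PLVAP*, *ESAM* and *SOX18* were 14.3-fold, 3.56-fold, 3.22-fold and 2.53-fold higher, while the angioblast receptor *KDR* was 4.60-fold lower on 830 and 5089 reads. Summed over 31 loci the endothelial list held 14384 and 20365 normalized counts. The part of crest, vessel or epibranchial cells in the enriched loci was not tested.

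Pluripotency and germ cell genes differed in both directions, 6 higher and 5 lower of 19 (31.6% and 26.3%, beside 14.7% and 12.8% of all loci). *POUV*, the chick relative of OCT4, had 1746 and 41780 reads and was 17.9-fold lower (17.1 to 18.8). Its normalized count was 32567 in the PPR, 16822 in OEPs and 6126 at 8-9ss, a stepwise order across the dissected tissues. *NANOG* was 7.43-fold lower on 42 and 416 reads, whereas the RNA-binding gene *LIN28B* was 1.95-fold higher on 15436 and 10535.

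**Figure D3:**
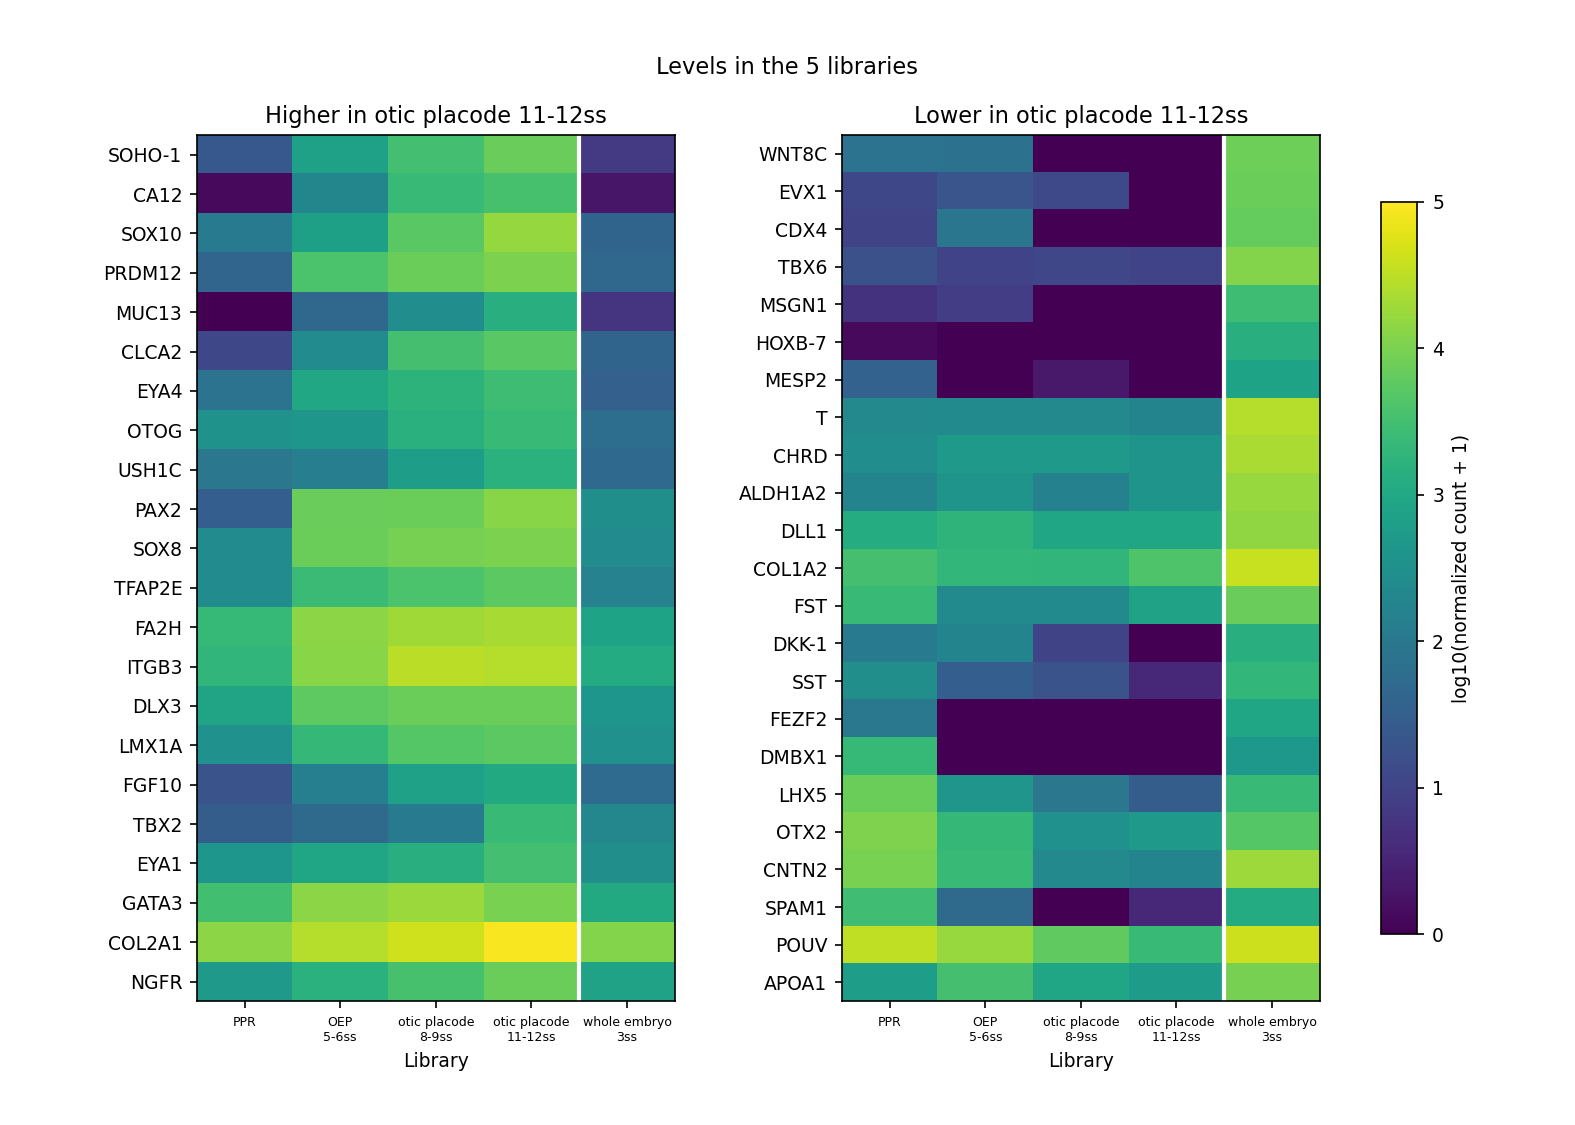
Levels of enriched (left) and depleted (right) genes in the 5 libraries (x axis), as log10 of the normalized count plus 1 in colour, with size factors over all 5 libraries and 1 library a column. Enriched genes such as SOX10 (114, 706, 5157 and 16063 from the PPR to 11-12ss) have lower levels in the PPR, and DMBX1, LHX5 and OTX2 have high levels in the PPR that mesodermal genes such as TBX6 lack.

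Among the loci with the most reads, the enriched side was led by the mitochondrial genome. *MT-ND5* had 284819 and 205014 reads (1.85-fold higher), *ND4L* 234113 and 162759 (1.92-fold), *MT-ND1* 205786 and 176167 (1.56-fold), *MT-ND2* 135961 and 71371 (2.54-fold) and *ND6* 122517 and 54616 (2.99-fold), all of them subunits of complex I. *ND6* is encoded on the opposite strand to the others, and the counting is not stated to use strand, so reads of overlapping transcripts cannot be told apart. Of the 9 mitochondrially encoded loci listed, a list made after their values were seen, 5 were higher, 0 lower and 4 neither, including *MT-CO1* at 1.43-fold and *MT-CYB* at 1.11-fold. Summed, they held 3359466 normalized counts in the placode and 2179388 in the whole embryo. The capture of mitochondrial transcripts by polyA selection was not tested.

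Of respiratory chain subunits encoded in the nucleus, 10 of 55 (18.2%) were lower and 1 higher, beside 12.8% and 14.7% of all loci, with a median log2 fold change of -0.27. The lower share was thus near that of all loci and few members were higher. *COX5A*, of complex IV, was 1.99-fold lower on 6174 and 16355 reads and *NDUFS3*, of complex I, 1.87-fold on 2517 and 6284. The higher one, *NDUFB1*, was 1.71-fold higher by counts but had an RPKM of 511 in the placode and 689.8 in the whole embryo, the opposite order.

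Other housekeeping groups held few higher members, and their lower shares lay on both sides of the 12.8% of all loci, at 20.7% for glycolysis, 26.3% for cholesterol synthesis, 10.8% for ribosomal proteins and 6.12% for the cell cycle. Of glycolysis genes 6 of 29 were lower and 0 higher, led by lactate dehydrogenase, *LDHA*, at 3.64-fold on 1976 and 9583 reads, with the lactate exporter *SLC16A3* 2.05-fold and the glucose transporters *SLC2A3* and *SLC2A1* 1.81-fold and 1.63-fold lower. Of cholesterol genes 5 of 19 were lower, among them *CYP51A1* and *HMGCS1* (1.67-fold and 1.62-fold), while *SREBP-1*, a regulator of lipid synthesis, was 3.34-fold higher on 6209 and 2477 reads. Cytosolic ribosomal proteins, a list also made after values were seen, had 7 lower and 1 higher of 65, a median log2 fold change of -0.25. *RPL19* and *RPL32* were 1.51-fold and 1.73-fold lower, and *RPL19* was not called with size factors over all 5 libraries. In the cell cycle list 45 of 49 were neither, with *MYC* 2.78-fold and *CCND2* 2.59-fold lower and the inhibitor *CDKN1B* 1.57-fold higher, the latter not called in RPKM.

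**Figure D4:**
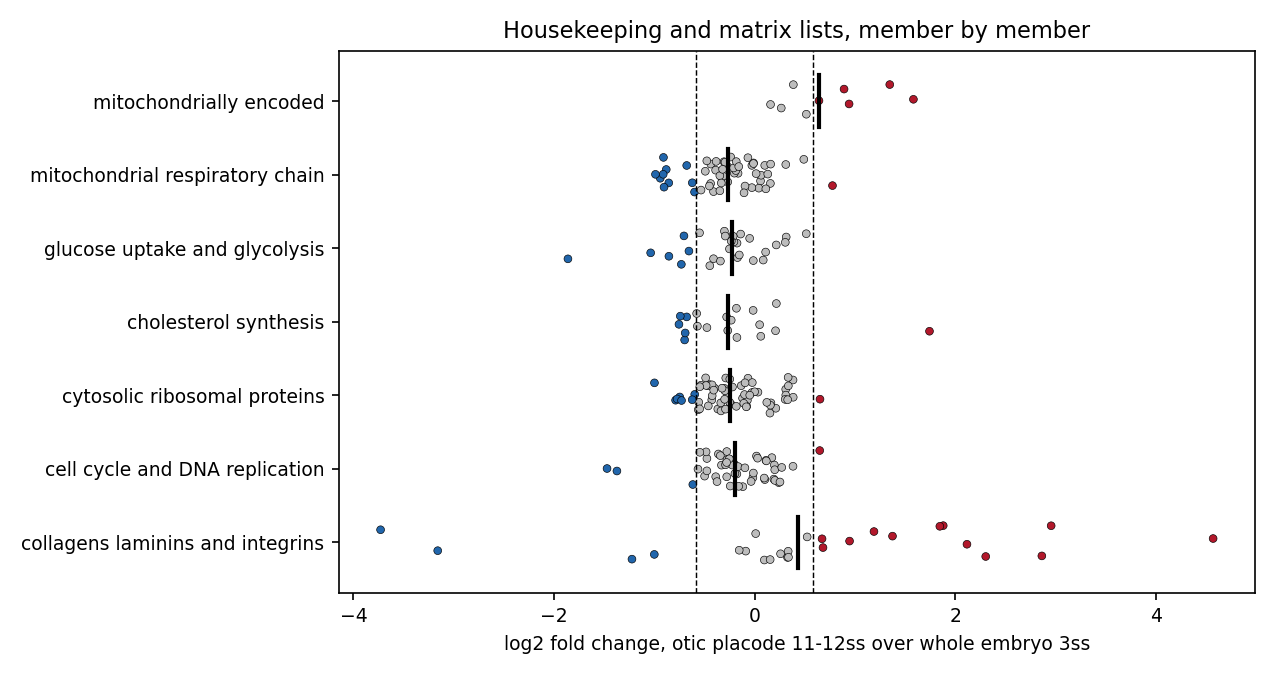
The log2 fold change of each member that passed the levels (points, x axis) in 7 gene lists (rows), with black bars at the list medians and dashed lines at 1.5-fold in each direction. Mitochondrially encoded loci have a median of 0.64 and nuclear respiratory chain genes one of -0.27, while collagens, laminins and integrins spread to both sides.

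The remaining loci with the most reads were of varied function. On the enriched side, the peroxide-reducing enzyme *PRDX1* had 95136 and 55976 reads (2.27-fold), the tubulin *TUBB* 93881 and 71567 (1.75-fold), the cold-inducible RNA-binding protein *CIRBP* 67230 and 51115 (1.75-fold) and basigin, *BSG*, a chaperone of lactate transporters, 65785 and 51894 (1.69-fold). On the depleted side, the constitutive chaperone *HSPA8* had 87429 and 185844 reads (1.59-fold lower), cyclophilin A, *PPIA*, 48205 and 106190 (1.65-fold), the nucleotide kinase *NME2* 22455 and 66475 (2.22-fold), the nucleosome-binding protein *HMGN2* 24724 and 50626 (1.54-fold) and *GPR177* (Wntless, which is needed for WNT secretion) 15658 and 42483 (2.03-fold). *TUBB* and *HMGN2* were not called in RPKM. Stress genes, looked up after their values were seen, differed in direction. *HSP70* had 18600 and 4618 reads and was 5.37-fold higher, whereas *ATF3* was 12.7-fold lower on 33 and 557. Whether dissection bears on them was not tested.

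The PPR, OEP and 8-9ss libraries took no part in choosing the loci, so ratios among them were taken as a separate description. A locus was measured in a step when either library had at least 30 normalized counts. From the PPR to OEPs the median log2 ratio was 0.63 for the higher loci, -0.42 for the lower loci and -0.01 for all loci that passed. Over 1.5-fold higher in OEPs than in the PPR were 692 of 1314 higher loci (52.7%) and 136 of 1127 lower loci (12.1%), beside 18.3% of all. In the opposite direction these shares were 6.24%, 42% and 16.6%.

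The step from OEPs to the 8-9ss placode was smaller in all sets, with medians of 0.16 for the higher, -0.18 for the lower and -0.01 for all loci. Here 21.2% of higher and 4.39% of lower loci were over 1.5-fold higher in the 8-9ss placode, beside 4.75% of all, and 3.72%, 25.9% and 5.73% were lower by as much. Among the loci that passed the levels, 42 were over 4-fold higher in this step. Of these, 37 were among the enriched loci, including *CA12*, *SOX10* and *CLCA2*. The levels and the enriched calls both used the invaginating placode and whole embryo libraries. A locus could thus enter the 42 by being high in the invaginating placode, and the overlap is no independent support. The PPR, OEP and 8-9ss libraries follow each other in development, and each ratio rests on a single library a side.

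**Figure D5:**
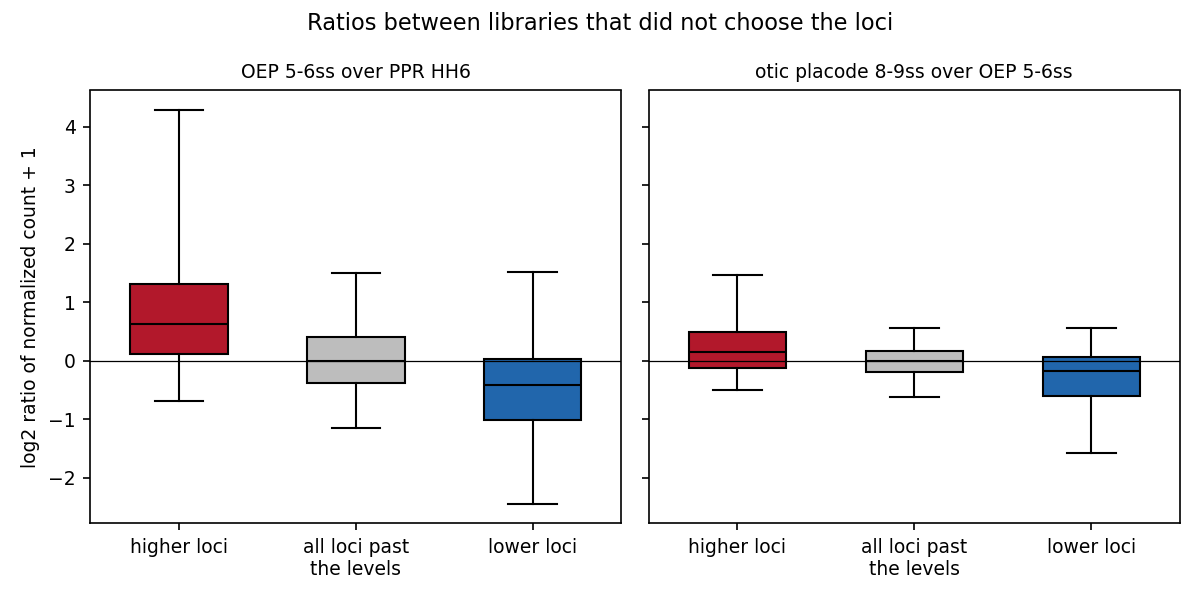
The log2 ratio of the normalized count plus 1 (y axis) between the OEP and PPR libraries (left) and the 8-9ss and OEP libraries (right), for loci higher in the 11-12ss placode, all loci that passed the levels and lower loci. Boxes give the median and quartiles and whiskers the 5th and 95th percentiles over loci. From the PPR to OEPs the medians are 0.63, -0.01 and -0.42.

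The called loci were also compared in the deposited RPKM, which corrects for transcript length. Of the 1320 higher loci, 1098 were also over 1.5-fold higher in RPKM and 14 were lower. Of the 1149 lower loci, 995 were also over 1.5-fold lower in RPKM and 16 were higher. The sizes differed widely for genes such as *CLDN5*, 14.3-fold higher by counts, with an RPKM of 5.15 in the placode and 1.58 in the whole embryo, and *IRX4*, 10.7-fold by counts but with 105 and 0.295. For some depleted genes with few placode reads the RPKM ratio was smaller, 39.8 for *AGRP*, 52.5 for *GATA4*, 59.4 for *CDX2*, 62.1 for *ZIC1*, 224 for *SPAM1*, 515 for *SST* and 21.6 for *TTR*. It was also smaller for the enriched *PLEKHS1* (97.2), *FIGF* (37.9) and *SIX6* (7.86). It was larger for *ODF2L* (382), *PNOC* (62.8), *OTOG* (61.4) and *ND4L* (3.30). *NDUFB1* differed in direction, as given above. The reads per unit of RPKM, a measure of transcript length, had medians of 0.88 for higher and 0.83 for lower loci, relative to 1 for all loci that passed.

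Neighbouring genes were described through the RefSeq gene order. Of 3912 adjacent pairs with both genes past the levels, 110 (2.81%) were higher together, 82 (2.1%) lower together and 71 opposite. The numbers for pairs that are not neighbours were not computed, so whether neighbours share a direction more often was not tested. Pairs of related genes included *COL4A1* with *COL4A2* and, as neighbours of a strongly enriched gene, *SOX10* with *PICK1* (1.81-fold higher) and *CA12* with *RAB8B* (1.78-fold higher). In the pairs *SOHO-1* with *HMX1*, *USH1C* with *OTOG* and *CLCA2* with *ODF2L*, both genes were strongly enriched. Whether transcription or counting runs from one gene into the next was not tested.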

How the data were processed

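Polyadenylated RNA of 5 libraries was measured by RNA-seq. The authors aligned reads with TopHat2 to the chicken genome (galGal4), assembled transcripts with Cufflinks, merged them into loci and counted reads with easyRNAseq. The deposited counts are these whole reads per locus. RPKM, also deposited, came from Cuffdiff as run by the authors. Reads were single or paired, and which library had which is not given in the sources used here. Intervals cover counting error only and treat each read as an independent count. PCR duplicates were not told apart, so the intervals may be too narrow.

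Counts of the 11-12ss placode and the 3ss whole embryo were scaled with median-of-ratios size factors over these 2 libraries (Python 3.11.15, numpy 2.4.6, pandas 2.3.3). Exact binomial 95% intervals were computed with scipy 1.17.1. With a library at 0, a printed fold was taken against a floor of 3 counts. For calls, list medians and numbers of loci past a fold, any count under 3 was set to 3. The script was tested on simulated data. Levels over 5 libraries used size factors over all of them. The members of 33 gene lists, given by textbook roles, and the named loci were chosen with earlier results of these data known. Of 1364 symbols, 1134 matched a locus. Named loci were the 25 with the largest differences in each direction, ranked by the interval bound nearest 1, the 10 with the most reads in each direction, and called or defining list members. *ASS1*, *ATF3*, *GALNT6*, *HSP70*, *MKP3*, *PICK1*, *PTPRZ1* and *RAB8B* were named after their values were seen, and the lists of mitochondrially encoded and ribosomal protein loci were added then. Some genes that the rule picked are not reported here. Neighbours came from the RefSeq gene order, without coordinates. Alternatives were other scalings (edgeR 4.0.16 TMM among them), levels, thresholds, RPKM in place of counts and thinned counts.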

Additional observations from a re-analysis of the deposited data

How the results depend on the processing

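With edgeR's TMM normalization, 1317 loci were higher and 1152 lower, against 1320 and 1149, and with size factors over all 5 libraries 1415 and 1127. Scaling by total count gave 1193 and 1302, the deposited RPKM in place of counts 1358 and 1260, and counts thinned to the smaller library's total 1286 and 1110. In RPKM, 1098 higher and 995 lower loci were kept, while 1 and 3 were called in the opposite direction. Dropping the RPKM threshold gave 1469 and 1316, and dropping the count threshold 2022 and 1586. A count over 1000 left 901 and 694, a fold over 2 left 658 and 550, and asking the whole interval to lie past 1.5-fold left 1077 and 904. Among loci with a symbol there were 1072 and 1003.

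No direction of a named gene changed with the scalings, but the calls of RXRA and SIX4 were lost under total count scaling (log2 0.56 each) and that of RPL19 with size factors over all 5 libraries (-0.58). In RPKM the calls of 8 named genes were lost, CDH3 (0.45), CDKN1B (0.32), DLX5 (0.44), HMGN2 (-0.53), KRT19 (-0.43), PRRX1 (0.32), TUBB (0.42) and NDUFB1. In RPKM the log2 fold change of NDUFB1 was -0.43, the opposite direction. The difference between the number of higher and lower members became -1 for cadherins and cell adhesion molecules under total count scaling, and -1 for pluripotency and germ cell genes in RPKM. The cause was not tested. No paired analysis was possible because each condition has 1 library. Depth limits the folds of loci with few reads in the lower library, of which 22 higher and 56 lower loci had a normalized count under 30 there.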

Other observations

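Loci without a gene symbol made up 248 of the 1320 higher and 146 of the 1149 lower ones. They were not described by function.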
